A study of Mus musculus with 4 samples.

Results

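Kinesins, cytoplasmic dynein, its activator dynactin and the unconventional myosins are the motors that move cargo along microtubules and actin filaments. The genes described here were chosen by name, as those whose symbol begins with Kif, Klc, Dync, Dynl or Dctn, or with Myo and a digit, and by level, with a rescaled FPKM (fragments per kilobase of transcript, relative to library size) of at least 1 in any library. Of 94 symbols with these beginnings, 67 passed, among 11014 named genes at that level in the series. The members nearest above the limit were Klc3, Myo1a and Dynlt1c, with highest values of 1.06, 1.39 and 1.84 FPKM, and those nearest below were Dynlt1f, Myo18b and Kif17, with 0.822, 0.494 and 0.467 FPKM. Kifbp entered by its symbol, although it encodes a kinesin-binding protein and no motor.

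The libraries were made from N2A cells, a mouse neuroblastoma line, transfected by Lipofectamine for 5 h and cultured for 3 days. The 4 groups were cells given an shRNA against Ptbp1 (Ptbp1 knockdown), an shRNA against Ptbp2 (Ptbp2 knockdown), both shRNAs together (double knockdown), and shControl (control). Poly(A) RNA was sequenced strand-specifically as paired reads of 100 bases. With 1 library for each group there are no replicates, so no test was run and every difference below is one between single libraries. The 3 knockdowns were each set against the same control library.

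Ptbp1 and its neuronal relative Ptbp2 are RNA-binding proteins that bind pyrimidine-rich RNA and repress many alternative exons, and Ptbp1 also restrains Ptbp2. Plus-end-directed kinesins such as kinesin-1 (Kif5 heavy chains with Klc light chains) carry cargo outward along axons, cytoplasmic dynein with dynactin carries it back, and other kinesins build the mitotic spindle. Unconventional myosins move organelles or shape membranes on actin.

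The libraries held 183 to 227 M exon reads and 59.5 to 75.9 M junction reads. Levels are exon reads as CPM (counts per M) after scaling by the median of ratios over all 4 libraries. Ptbp1 itself had 195 CPM after Ptbp1 knockdown, 733 CPM after Ptbp2 knockdown and 146 CPM after double knockdown, against 640 CPM in control. Ptbp2 had 287 CPM after Ptbp1 knockdown, 39.2 CPM after Ptbp2 knockdown and 61.2 CPM after double knockdown, against 143 CPM in control. Each targeted mRNA was therefore lower in the libraries labelled with its shRNA, and Ptbp2 was higher in the Ptbp1 knockdown. The 13 measured sympathetic neuroblast markers summed to 2794, 2677, 2445 and 2848 CPM in the Ptbp1, Ptbp2, double knockdown and control libraries, but single markers differed both ways. At the 1.5-fold limit used below, 3 of them were higher (23.1%, beside 11.3% of all genes) and 0 lower (beside 3.56%) after Ptbp1 knockdown. After Ptbp2 knockdown 3 were higher and 3 lower (23.1% each, beside 4.17% and 8.2%), with log2 differences from -1.65 to 1.45. After double knockdown 2 were higher and 2 lower (15.4% each, beside 6.96% and 6.27%). Dbh, the enzyme that makes noradrenaline, had 173, 16.5 and 47.6 CPM in the Ptbp1, Ptbp2 and double knockdowns, against 44.3 CPM in control. Ngfr, a neurotrophin receptor, had 139, 60.6 and 58.7 CPM, against 191 CPM in control. The part of these in the motor gene values was not tested. The 8 fibroblast markers summed to 2.23 to 7.84 CPM, the 8 glial markers to 4.55 to 6.40 CPM and the 7 measured blood and endothelial markers to 3.70 to 4.47 CPM, with Thy1, Aqp4 and Kdr at 0 in all 4 libraries.

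A selection of the alternative exons is shown first, each at least 20 percentage points from control in junction inclusion in 1 or more knockdowns, to cover dynein, dynactin, kinesins and myosins. They are not ranked, and other exons described below differed as much. Each is printed in capitals between 12 bases of its neighbouring exons, 5′ to 3′, as spliced in GENCODE vM21 transcripts that have the same exon and intron lengths. They lie in the dynein intermediate chain Dync1i2, the dynactin subunit Dctn1, the microtubule-depolymerising kinesin Kif2a, the kinesin-3 heavy chain Kif1b and the myosins Myo5a, Myo9a and Myo18a.
Dync1i2, 60 nt: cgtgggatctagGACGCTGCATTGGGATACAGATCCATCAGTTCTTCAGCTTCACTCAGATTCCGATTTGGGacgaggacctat
Dctn1, 15 nt: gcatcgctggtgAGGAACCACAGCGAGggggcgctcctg
Kif2a, 114 nt: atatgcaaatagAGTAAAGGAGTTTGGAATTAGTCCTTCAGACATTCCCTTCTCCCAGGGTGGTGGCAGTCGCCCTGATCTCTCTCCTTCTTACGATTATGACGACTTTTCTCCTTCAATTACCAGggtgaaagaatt
Kif1b, 42 nt: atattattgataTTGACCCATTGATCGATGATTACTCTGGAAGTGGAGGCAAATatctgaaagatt
Kif1b, extension of 78 nt at the next exon: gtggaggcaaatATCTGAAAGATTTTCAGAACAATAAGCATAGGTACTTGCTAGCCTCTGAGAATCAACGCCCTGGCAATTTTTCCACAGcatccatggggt
Myo5a, 81 nt: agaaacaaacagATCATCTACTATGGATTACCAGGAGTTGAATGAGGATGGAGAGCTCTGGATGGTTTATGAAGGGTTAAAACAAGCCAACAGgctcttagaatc
Myo9a, 54 nt: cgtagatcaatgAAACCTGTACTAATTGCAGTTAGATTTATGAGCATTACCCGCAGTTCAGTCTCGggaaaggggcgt
Myo18a, 45 nt: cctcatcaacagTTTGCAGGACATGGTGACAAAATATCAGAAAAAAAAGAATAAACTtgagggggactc
All of these are coding in those transcripts, and each length is a multiple of 3, so that the reading frame is kept whether they are joined or skipped.

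Most motor genes had nearly the same level in all 4 libraries, and the kinesin-1 subunits Kif5a and Klc1 were among the exceptions. The neuronal heavy chain Kif5a had 255 CPM after Ptbp1 knockdown, 74.9 CPM after Ptbp2 knockdown and 205 CPM after double knockdown, against 97.4 CPM in control, which are log2 differences from control of 1.39, -0.38 and 1.08. The light chain Klc1, which links kinesin-1 to cargo, had 154, 70.6 and 145 CPM in the Ptbp1, Ptbp2 and double knockdowns, against 86.3 CPM in control (log2 0.84, -0.29 and 0.75). Both genes were high in the 2 libraries with the Ptbp1 shRNA and lowest in the Ptbp2 knockdown. The other kinesin-1 heavy chains, Kif5b and Kif5c, stayed below 1.5-fold in every knockdown. Kif5b had 258, 221 and 278 CPM in the Ptbp1, Ptbp2 and double knockdowns, against 297 CPM in control, and Kif5c had 283, 213 and 288 CPM, against 270 CPM in control. The light chains Klc2, Klc3 and Klc4 stayed below 1.5-fold too.

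A member is counted as higher or lower when it differed at least 1.5-fold with 1 CPM or more in either library, and 65 of the 66 members with exon reads could be assessed. The shares of all genes use the same CPM limit without the FPKM limit of the members, so the filters are not alike. In the Ptbp1 knockdown 5 of these 65 members were higher than in control, or 7.69%, where 11.3% of 10892 assessed genes were, and 3 were lower (4.62%, against 3.56% of all genes). Of the 5 higher members, Kifc2, Myo7a and Myo1a passed the FPKM limit only in libraries with the Ptbp1 shRNA. Their high values in the Ptbp1 knockdown are thus partly set by how members were chosen. In the Ptbp2 knockdown none was higher, where 4.17% of 10694 genes were, and 5 were lower (7.69%, against 8.2%). In the double knockdown 3 were higher (4.62%, against 6.96% of 10757 genes) and 6 were lower (9.23%, against 6.27%). These shares lay near or below those of all genes, and none is read as a result about motor genes. Of the 6 members lower in the double knockdown, Dctn4, Kif23, Kif24 and Kifap3 lost the call with scaling by total exon reads. They lost it with rescaled FPKM too. The median log2 difference of the members was -0.09, -0.09 and -0.03 in the Ptbp1, Ptbp2 and double knockdowns, beside medians of 0.00, 0.01 and -0.00 over all genes.

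**Figure D1:**
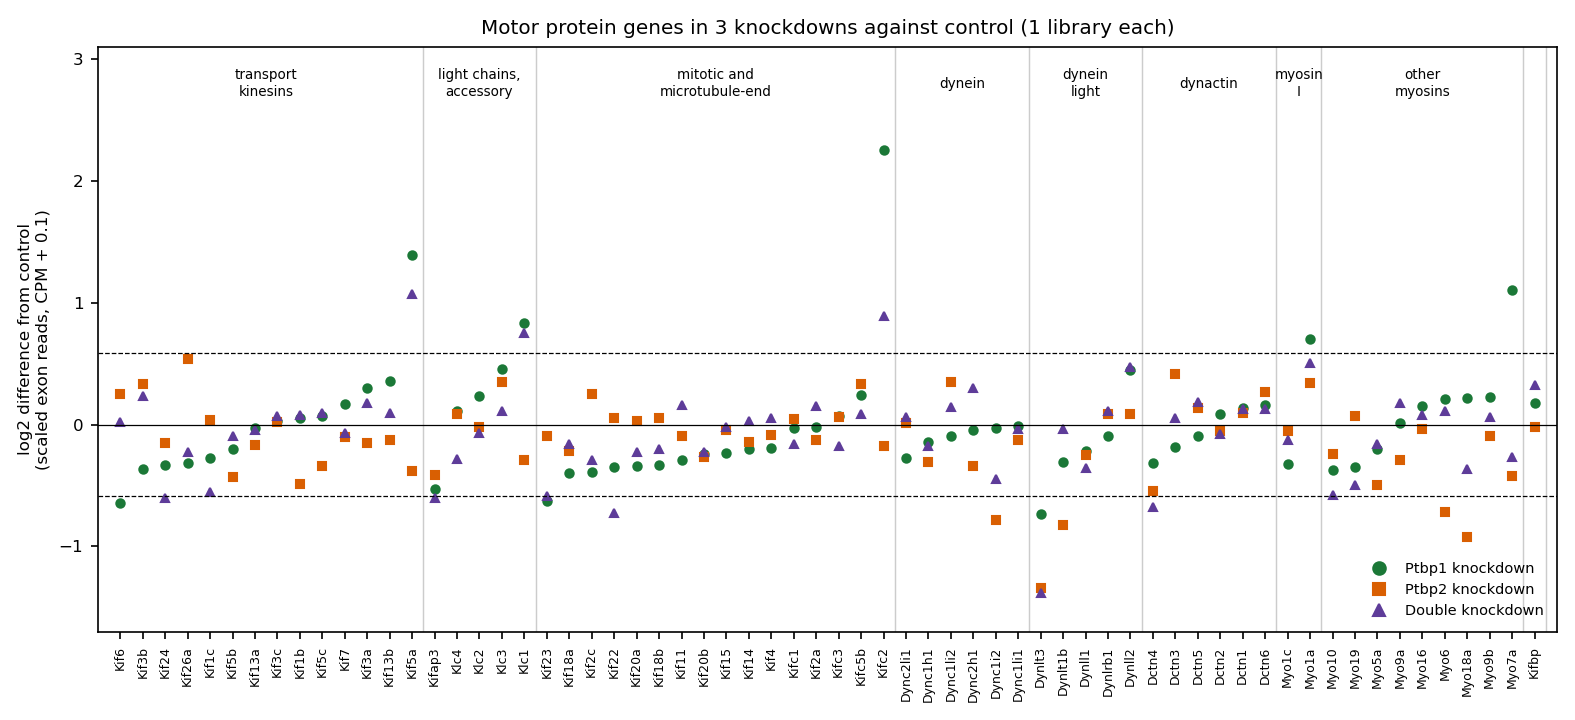
Log2 difference from control of scaled exon reads (CPM + 0.1) for 64 of the 65 assessed members, grouped by family and ordered within each by the Ptbp1 knockdown; circles are the Ptbp1, squares the Ptbp2 and triangles the double knockdown, each 1 library, and dashed lines mark 1.5-fold. Most points lie between the dashed lines, with Kif5a, Klc1 and Kifc2 above them in both libraries that received the Ptbp1 shRNA and Dynlt3 below them in all 3 knockdowns.

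Among the 14 kinesin heavy chains listed here as transport kinesins, Kif5a was the 1 higher member in the Ptbp1 and double knockdowns (7.14%, beside 11.3% and 6.96% of all genes). The 1 lower member in each of them was also 7.14%, beside 3.56% and 6.27%. Kif24, a kinesin of centrioles and cilia, had 15.6, 17.8 and 12.9 CPM in the Ptbp1, Ptbp2 and double knockdowns, against 19.8 CPM in control, and was counted as lower in the double knockdown (log2 -0.61). Kif6 was counted as lower in the Ptbp1 knockdown (log2 -0.65) at only 1.76 CPM, against 2.82 CPM in control. No member of this list was counted in the Ptbp2 knockdown, where the median was -0.14. Kif1b, a carrier of mitochondria and synaptic vesicle precursors, had 447, 308 and 457 CPM in the Ptbp1, Ptbp2 and double knockdowns, against 431 CPM in control. Per length the highest heavy chains in control were Kif5b, at 44.0 CPM per kb of exon, and Kif5c, at 39.5 CPM per kb.

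Kifap3, which holds the kinesin-2 heavy chains together, was the highest of the light chains and accessory subunits per length in control, at 29.0 CPM per kb, above Klc1 at 21.7 CPM per kb. It had 78.4, 85.0 and 74.4 CPM in the Ptbp1, Ptbp2 and double knockdowns, against 113 CPM in control. Only the double knockdown, at log2 -0.60, passed 1.5-fold, and all 3 knockdown libraries lay below control.

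The 16 kinesins listed here as mitotic and microtubule-end were mostly slightly lower in the Ptbp1 knockdown, where 13 lay below control with a median log2 difference of -0.24. Those above control were Kifc2 (log2 2.25), Kifc5b (0.24) and Kifc3 (0.07). Of these Kifc2, described below, was the 1 member of this list counted as higher in the Ptbp1 and double knockdowns (6.25%, beside 11.3% and 6.96% of all genes). The median was -0.07 with Ptbp2 and -0.16 with both knocked down. Kif23, a motor of cytokinesis, had 74.0, 108 and 76.3 CPM in the Ptbp1, Ptbp2 and double knockdowns, against 115 CPM in control, and was counted as lower in the Ptbp1 and double knockdowns (log2 -0.63 and -0.59). Kif22, a chromosome-binding kinesin and the highest of this list per length, had 96.9, 128 and 74.4 CPM, against 123 CPM in control, and was counted only in the double knockdown (log2 -0.73). Kif18b, the next highest per length, had 126, 165 and 138 CPM, against 159 CPM in control. The 18 cell cycle markers are no members, although 1 of them, Cenpe, encodes a mitotic kinesin. They had medians of -0.30, -0.00 and -0.11 in the Ptbp1, Ptbp2 and double knockdowns, and 0, 9 and 3 of the 18 above control. Their part in the kinesin values was not tested, and in bulk RNA fewer dividing cells cannot be told apart from less mRNA per cell.

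Kifc2, a minus-end-directed kinesin of neurons, differed most of all members in the Ptbp1 knockdown. Its rescaled FPKM was 2.15 there, and 0.37, 0.86 and 0.42 in the Ptbp2 knockdown, double knockdown and control. Kifc2 thus passed the FPKM limit for members only through the library in which it is high. It had 9.0 CPM after Ptbp1 knockdown, 1.59 CPM after Ptbp2 knockdown and 3.44 CPM after double knockdown, against 1.81 CPM in control, or log2 differences of 2.25, -0.18 and 0.89. Its level in the double knockdown lay between those of the Ptbp1 knockdown and control.

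Levels of the Dync and Dctn members were mostly flat. Dynactin subunits with other symbols are no members and are given with the adaptors below. Of these, Actr1b and Capza2 were counted as lower in the Ptbp2 and double knockdowns and Capzb in the Ptbp1 knockdown. Actr1a was not counted. The heavy chain Dync1h1 had 340, 304 and 334 CPM in the Ptbp1, Ptbp2 and double knockdowns, against 377 CPM in control, and the light intermediate chain Dync1li2 had 164, 224 and 194 CPM, against 176 CPM in control. Dync1i2, the intermediate chain that binds dynactin, was the only one of 6 cytoplasmic dynein subunits counted (16.7%, beside 8.2% of all genes lower in the Ptbp2 knockdown). It had 166, 98.5 and 124 CPM in the Ptbp1, Ptbp2 and double knockdowns, against 170 CPM in control, and was counted as lower in the Ptbp2 knockdown (log2 -0.78).

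Among the dynein light chains, Dynlt3 was lower in all 3 knockdowns. It had 14.3 CPM after Ptbp1 knockdown, 9.37 CPM after Ptbp2 knockdown and 9.10 CPM after double knockdown, against 23.9 CPM in control (log2 -0.74, -1.34 and -1.38). The most abundant motor subunits per length in control were the light chains Dynll1, at 197 CPM per kb, and Dynlrb1, at 128 CPM per kb, and neither passed 1.5-fold. Dynlt1b was counted as lower in the Ptbp2 knockdown (0.622 CPM, against 1.18 CPM in control), but rescaled FPKM gave the opposite sign (2.13). The Dynlt1 genes are near-identical copies whose reads may be split between them, so its value is uncertain.

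Of the 6 dynactin subunits with Dctn symbols only Dctn4, a subunit of the pointed end, was counted (16.7%, beside 6.27% of all genes lower in the double knockdown). Dctn4 had 80.6, 68.8 and 62.9 CPM in the Ptbp1, Ptbp2 and double knockdowns, against 101 CPM in control, and passed 1.5-fold in the double knockdown (log2 -0.68). Dctn2, the highest per length in control at 106 CPM per kb, had 249, 226 and 222 CPM, against 234 CPM in control. Of its exon reads, 24.4% lie on exons that overlap a gene of the opposite strand.

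Of the 9 unconventional myosins outside class I, 1 was counted as higher in the Ptbp1 knockdown (11.1%, beside 11.3% of all genes), 2 as lower in the Ptbp2 knockdown (22.2%, beside 8.2%) and none in the double knockdown. Myo7a, known for its role in sensory hair cells, had 15.6, 5.37 and 6.0 CPM in the Ptbp1, Ptbp2 and double knockdowns, against 7.23 CPM in control, and was counted as higher in the Ptbp1 knockdown (log2 1.10). Myo18a had 61.2, 27.7 and 40.9 CPM, against 52.8 CPM in control, and Myo6, the myosin that moves to the minus end of actin, had 15.0, 7.82 and 14.0 CPM, against 12.9 CPM in control. Both were counted as lower in the Ptbp2 knockdown alone (log2 -0.93 and -0.72). Myo5a, an organelle carrier and the highest unconventional myosin per length in control, at 35.7 CPM per kb, had 415, 339 and 428 CPM in the Ptbp1, Ptbp2 and double knockdowns, against 478 CPM in control, and Myo19, a mitochondrial myosin, had 38.7, 51.8 and 34.9 CPM, against 49.5 CPM in control. Of the exon reads of Myo19, 22.4% lie on exons that overlap a gene of the opposite strand. Among the class I myosins, Myo1a was counted as higher in the Ptbp1 knockdown (log2 0.70) at 2.75 CPM, against 1.65 CPM in control. The more abundant Myo1c was not counted, with 13.9 CPM per kb in control.

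Some of these calls hold only for the scaling used. Scaling by total exon reads moved all genes up by 0.15 (log2) in the Ptbp1 and 0.12 in the double knockdown, and with it Kif23 and Kif6 in the Ptbp1 knockdown and Dctn4, Kif23, Kif24 and Kifap3 in the double knockdown came below 1.5-fold. With that scaling the median of all members turned positive, at 0.06 in the Ptbp1 and 0.08 in the double knockdown, and so did that of the adaptors listed below, at 0.14 and 0.06. The mitotic kinesins stayed below control, at -0.09 and -0.04, while the cell cycle markers had -0.15 in the Ptbp1 and 0.01 in the double knockdown. With a pseudocount of 1 CPM, Kif6 and Myo1a after Ptbp1 knockdown, Dynlt1b after Ptbp2 knockdown, and Kif23 and Kif24 after double knockdown did so, and with rescaled FPKM so did Dynlt3, Kif23, Kif6, Myo1a and Myo7a in the Ptbp1 knockdown and Dctn4, Kif23, Kif24, Kifap3 and Kifc2 in the double knockdown. Rescaled FPKM and exon reads gave the same sign for 49, 49 and 54 of 66 members in the Ptbp1, Ptbp2 and double knockdowns.

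**Figure D2:**
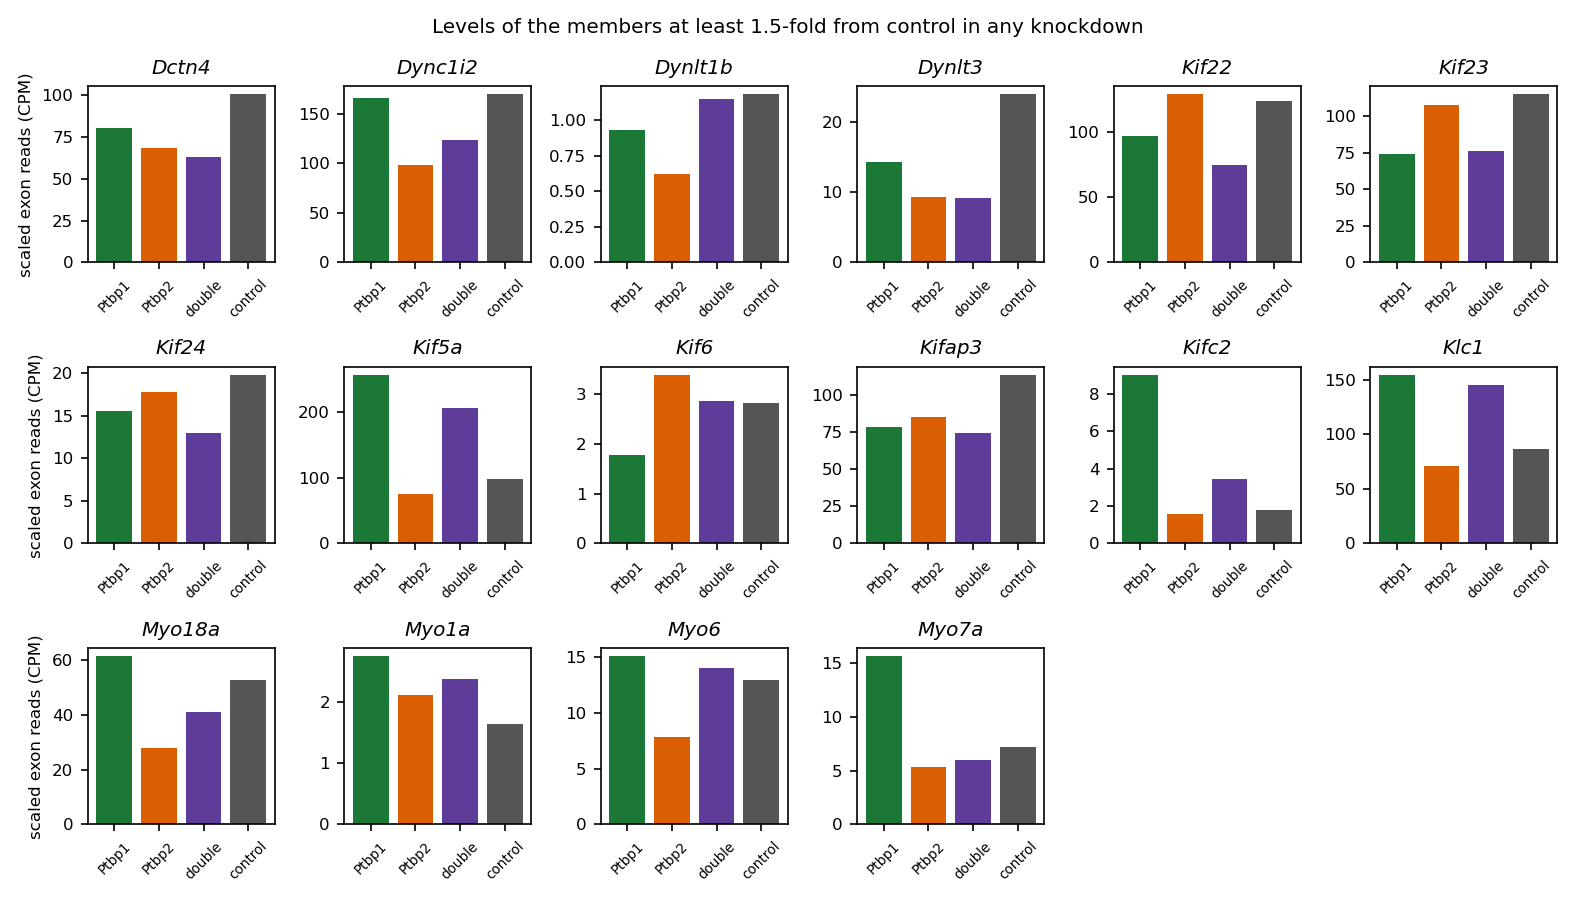
Scaled exon reads (CPM, linear axes from 0, a separate scale for each gene) of the 16 members at least 1.5-fold from control in any knockdown; each bar is 1 library, with the knockdowns left of control. Kif5a and Klc1 stand high in the Ptbp1 and double knockdowns, Kifc2 and Myo7a in the Ptbp1 knockdown, and Dynlt3 is highest in control.

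The 2 knockdowns combined were also compared with each alone. Set against the Ptbp1 knockdown, the double knockdown had 2 members higher (3.08%, beside 1.99% of 10910 genes), Kif3b and Kif6, and 3 lower (4.62%, beside 8.84%). The lower ones were Kifc2 and Myo7a, at log2 -1.36 and -1.37, and Dynlt3 at -0.65. Against the Ptbp2 knockdown it had 6 members higher (9.23%, beside 6.98% of 10769 genes), with Kif5a at 1.45, Kifc2 at 1.07, Klc1 at 1.04, Myo6 at 0.83, Dynlt1b at 0.79 and Dync2h1 at 0.63. It had 3 lower (4.62%, beside 3.5%), Kif22, Kif26a and Kif1c. Of these, Kif3b, Kif26a and Kif1c are named after their values were seen.

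Motor adaptors and regulators, which hold cargo or switch motors on, were read from a list of 54 genes that are no members. Of the 45 to be assessed, 2 were higher and 2 lower after Ptbp1 knockdown (4.44% each, beside 11.3% and 3.56% of all genes). After Ptbp2 knockdown 0 were higher and 6 lower (13.3% lower, beside 8.2%), and after double knockdown 0 and 4 (8.89% lower, beside 6.27%). The median log2 differences were -0.01, -0.12 and -0.06 in the Ptbp1, Ptbp2 and double knockdowns. Actr1b, an actin-related protein of the dynactin filament, had 187, 66.7 and 74.0 CPM in the Ptbp1, Ptbp2 and double knockdowns, against 170 CPM in control (log2 0.14, -1.35 and -1.20). Its paralogue Actr1a, named after its values were seen, had 155, 185 and 180 CPM, against 185 CPM in control. Capza2, a capping protein subunit that dynactin also holds, had 175, 111 and 130 CPM, against 198 CPM in control (log2 -0.18, -0.84 and -0.61). Both Actr1b and Capza2 were low in the libraries with the Ptbp2 shRNA.

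Of the calls against control in that list, only those of Mapre3 and Rab11fip5, both after Ptbp1 knockdown, were higher, and all others were lower. The dynein adaptor Hook3 had 85.3, 81.7 and 59.9 CPM in the Ptbp1, Ptbp2 and double knockdowns, against 116 CPM in control, and was counted in the double knockdown (log2 -0.95). The liprin Ppfia1 was lower in the Ptbp1 and double knockdowns (58.9 and 52.1 CPM, against 98.4 CPM in control), whereas its relative Ppfia2 was lower in the Ptbp2 knockdown (15.5 CPM, against 29.7 CPM in control). In the Ptbp1 knockdown the microtubule-end protein Mapre3 was higher (log2 0.65), as was Rab11fip5 at low level (log2 1.28), and the capping protein subunit Capzb was lower (log2 -0.60). Jakmip2 was lower in the Ptbp2 knockdown (log2 -0.80).

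Splicing was compared exon by exon. Inclusion was computed from junction reads, as the mean of both junctions of an exon over that mean plus the skipping junction, for exons with at least 20 such reads in both libraries. Against control, 1239 exons of the members could be compared after Ptbp1 knockdown, 1197 after Ptbp2 knockdown and 1245 after double knockdown, and 1209, 1167 and 1203 of them lay within 5 percentage points of control. At 20 points or more, 6 exons were higher and 2 lower in the Ptbp1 knockdown, or 0.484% and 0.161%, beside 0.246% and 0.112% of all 102484 cassette exons. In the Ptbp2 knockdown 1 was higher and 1 lower, or 0.0835% each, beside 0.0376% and 0.137% of all exons. In the double knockdown 10 were higher and 6 lower, or 0.803% and 0.482%, beside 0.339% and 0.238%.

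These counts came from 16 different exons in 12 genes. All 16 have a length that keeps the reading frame, where 41.7% of the 1260 measured exons of the members do. No longer than 60 nt are 12 of them, where 7.46% of the measured exons are. Most measured exons lay within 5 points of control. The same shares among all counted exons of the series were not computed, so neither trait can be called particular to motor genes. The 16 include 2 Myo18a exons that share an end, and the Kifc3 exon is only partly coding. Of the 16 genes counted by level, 3 also held a counted exon (Dctn4, Dync1i2 and Myo18a), beside 12 of all 63 member genes with measured exons. Intervals below are 95% Wilson intervals and cover counting error only, since the reads carry no molecular identifiers.

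A read that spans both junctions of a short exon was counted at 1 of them in these tables. In control, the junction on the right in genome order held a median of 13.0% of the inclusion reads of exons of 13 to 21 nt, 32.6% at 46 to 60 nt and 50% above 100 nt. The mean of both junctions therefore understates the inclusion of short exons, and for cassette exons below 100 nt the value from the left junction alone is given beside it.

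**Figure D3:**
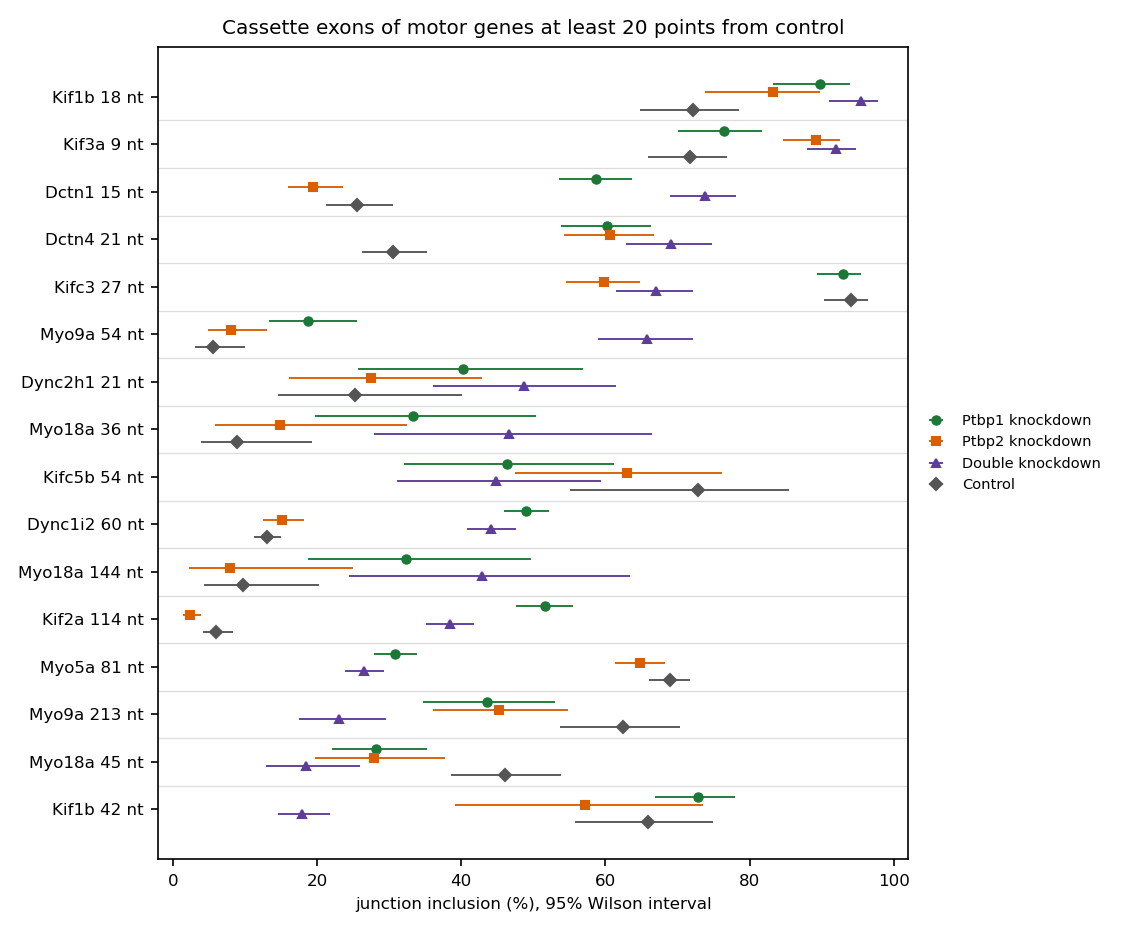
Junction inclusion (%) of the 16 exons that differed by at least 20 points from control in any knockdown, ordered by the double knockdown, with the exon's length beside its gene; points are single libraries and bars 95% Wilson intervals. Dctn1, Dync1i2 and Kif2a are high in the Ptbp1 and double knockdowns and near control in the Ptbp2 knockdown, whereas the Myo9a 54 nt exon is high in the double knockdown alone.

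The exon of 60 nt in Dync1i2 (mm9, chr2:71071706-71071765, plus strand) was joined in 49.0% of transcripts after Ptbp1 knockdown (interval 45.9 to 52.2), 15.1% after Ptbp2 knockdown (12.5 to 18.2) and 44.2% after double knockdown (40.8 to 47.6), against 13.0% in control (11.2 to 15.0). The left junction alone gave 52.8%, 17.1% and 48.0% in the knockdowns, against 15.8% in control. Inclusion was thus high where Ptbp1 was depleted and close to control in the Ptbp2 knockdown, the library in which the level of Dync1i2 was lowest.

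Its partner Dctn1, the dynactin subunit that binds both dynein and microtubules, behaved alike at an exon of 15 nt (mm9, chr6:83147313-83147327, plus strand). Inclusion was 58.7% after Ptbp1 knockdown (53.5 to 63.6), 19.5% after Ptbp2 knockdown (15.9 to 23.7) and 73.8% after double knockdown (68.9 to 78.1), against 25.6% in control (21.2 to 30.5). The left junction gave 71.6%, 29.7% and 84.0% in the knockdowns, against 36.5% in control. The level of Dctn1 was 158, 154 and 157 CPM in the Ptbp1, Ptbp2 and double knockdowns, against 144 CPM in control.

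Dctn4 held the one exon that was higher by 20 points in all 3 knockdowns. Its exon of 21 nt (mm9, chr18:60705011-60705031, plus strand) had 60.3%, 60.7% and 69.1% inclusion in the Ptbp1, Ptbp2 and double knockdowns, against 30.6% in control (26.2 to 35.3). Left-junction inclusion was 75.2%, 75.5% and 81.7%, against 46.8% in control. Each single knockdown came near the value of the double knockdown, and the gene's level was below control in all 3.

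Dync2h1, the heavy chain of the dynein of cilia, has few junction reads (33.5 to 56.5 per library). Its exon of 21 nt (mm9, chr9:7045349-7045369, minus strand) had 40.3%, 27.5% and 48.7% inclusion in the Ptbp1, Ptbp2 and double knockdowns, against 25.3% in control, and the interval in the double knockdown (36.1 to 61.4) overlapped that in control (14.6 to 40.1). From the left junction alone, inclusion was 48.7%, 39.6% and 61.3%, against 39.2% in control.

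Kif2a had the largest gain among the counted cassette exons of kinesins. Its exon of 114 nt (mm9, chr13:107759784-107759897, minus strand) was included in 51.6% of transcripts after Ptbp1 knockdown (47.5 to 55.6), 2.39% after Ptbp2 knockdown (1.47 to 3.88) and 38.4% after double knockdown (35.1 to 41.8), against 5.96% in control (4.24 to 8.32). The exon was nearly absent where Ptbp1 was left in place. The total level of Kif2a was 166, 154 and 187 CPM in the Ptbp1, Ptbp2 and double knockdowns, against 168 CPM in control.

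Kif1b used 2 neighbouring choices, the exon of 42 nt (mm9, chr4:148635269-148635310, minus strand) and a start of the next exon that is 78 nt further upstream (mm9, chr4:148632113-148632190), called the long acceptor here. Of the reads that left the exon before them, 45.2% went to the 42 nt exon after Ptbp1 knockdown, 9.63% after Ptbp2 knockdown and 12.7% after double knockdown, against 19.1% in control. Straight to the long acceptor went 20.9%, 3.40% and 61.6% in the Ptbp1, Ptbp2 and double knockdowns, against 5.70% in control. To the short acceptor went 34.0%, 87.0% and 25.6%, against 75.2% in control. The short acceptor thus took most of these reads in the Ptbp2 knockdown and control, the 42 nt exon took more than either acceptor in the Ptbp1 knockdown, and the long acceptor took most in the double knockdown. On this minus-strand gene the junction into the 42 nt exon is the right one, which loses reads at short exons, so these shares understate that exon. After Ptbp1 knockdown 145 reads joined it to the exon before it and 221 joined it to the long acceptor.

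**Figure D4:**
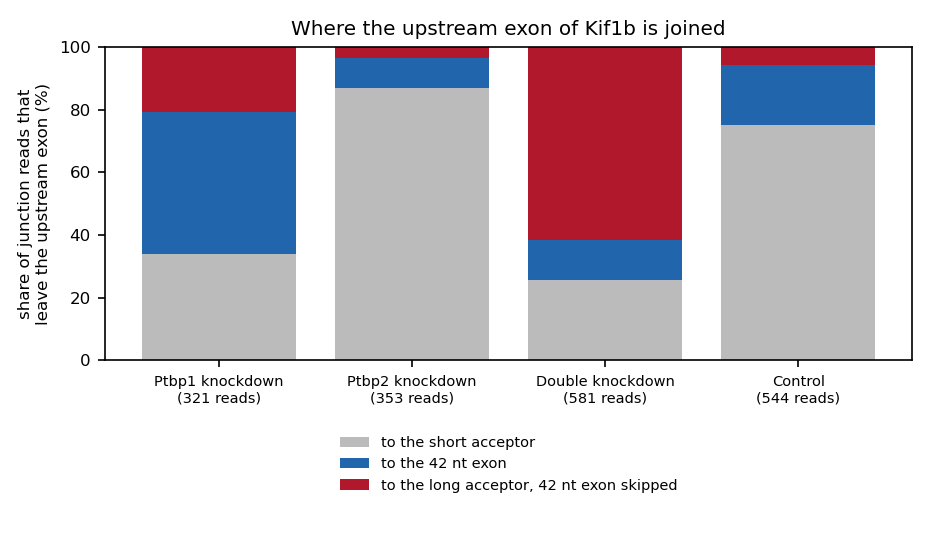
Share of junction reads (%) that join the exon upstream of the alternative region of Kif1b to the short acceptor, to the 42 nt exon or to the long acceptor; each bar is 1 library, with its number of reads below. The short acceptor takes 75.2% of reads in control and 87.0% in the Ptbp2 knockdown, whereas the long acceptor takes 61.6% in the double knockdown; the share of the 42 nt exon is understated, because its right junction is the one counted.

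Seen from the long acceptor, the 42 nt exon preceded it in 76.7% of 288 reads after Ptbp1 knockdown, 25.0% of 16 reads after Ptbp2 knockdown and 20.1% of 448 reads after double knockdown, against 41.5% of 53 reads in control. The mean of both junctions gave 72.8%, 57.1% and 17.9%, against 65.9% in control. That mean mixes unequal junctions, since in control 104 reads joined the 42 nt exon to the exon before it and 22 joined it to the long acceptor. A junction from the 42 nt exon to the short acceptor was not analysed here.

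Short exons of 18 nt in Kif1b and 9 nt in Kif3a, a kinesin-2 heavy chain, were counted in the double knockdown but lost the call with the left junction. The Kif1b exon (mm9, chr4:148639454-148639471, minus strand) had 89.7%, 83.2% and 95.5% inclusion in the Ptbp1, Ptbp2 and double knockdowns, against 72.1% in control. The left junction gave 94.6%, 90.8% and 97.7%, against 83.8% in control, which puts the double knockdown 13.9 points above control. The Kif3a exon (mm9, chr11:53404219-53404227, plus strand) had 76.4%, 89.2% and 92.0%, against 71.7% in control. Left-junction inclusion was 85.4%, 93.7% and 95.3%, against 82.3% in control, a difference of 13.0 points in the double knockdown. Both exons were already included in most transcripts of control.

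Among the minus-end kinesins, Kifc3 and Kifc5b each held an exon counted as lower. Kifc3 joined an exon of 27 nt (mm9, chr8:97624547-97624573, minus strand) in 93.0%, 59.8% and 67.0% of transcripts in the Ptbp1, Ptbp2 and double knockdowns, against 94.1% in control. It was the one member exon counted as lower in the Ptbp2 knockdown. From the left junction alone, inclusion was 95.9%, 71.5% and 77.5%, against 96.4% in control, which puts the Ptbp2 knockdown at -24.9 points and the double knockdown at -18.9 points, just short of the limit. An exon of 54 nt named Kifc5b (mm9, chr17:27058752-27058805, plus strand) had 46.3%, 63.0% and 44.8% inclusion, against 72.9% in control, on 29.5 to 43.5 reads per library, and the left junction gave 57.7%, 72.7% and 56.4%, against 79.5% in control. Kifc5b is a near-identical copy of Kifc1, so these reads may belong to either gene.

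Kif13a, named after its values were seen, lay just below the limit at an exon of 39 nt (mm9, chr13:46875995-46876033, minus strand). Inclusion was 39.8%, 5.43% and 11.2% in the Ptbp1, Ptbp2 and double knockdowns, against 24.7% in control. The left junction gave 49.0%, 6.87% and 16.5%, against 35.3% in control, which puts the Ptbp2 knockdown at -28.4 points, past the limit. It was above control in the Ptbp1 knockdown and below it in the other two.

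Myo5a joins several alternative exons in its tail, where they set which cargo adaptors bind, and the exon known as D is left out in brain. The exon of 81 nt (mm9, chr9:75040191-75040271, plus strand), the size of exon D, was included in 30.8% of transcripts after Ptbp1 knockdown (27.9 to 33.9), 64.8% after Ptbp2 knockdown (61.3 to 68.2) and 26.5% after double knockdown (23.9 to 29.3), against 68.9% in control (66.1 to 71.7). Left-junction inclusion was 33.7%, 67.8% and 30.3%, against 73.0% in control. Most transcripts thus lacked it in the 2 libraries with the Ptbp1 shRNA, and most held it in the others. The exon of 75 nt further along, the size of exon F (mm9, chr9:75043933-75044007), stayed low, at 4.60%, 1.59% and 1.88% in the Ptbp1, Ptbp2 and double knockdowns, against 5.88% in control. From the left junction alone, inclusion was 4.87%, 1.65% and 2.31%, against 6.71% in control.

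Myo9a, a single-headed myosin, held 2 exons that went opposite ways in the double knockdown. The exon of 54 nt (mm9, chr9:59760344-59760397, plus strand) had 18.7% inclusion after Ptbp1 knockdown (13.4 to 25.6), 8.05% after Ptbp2 knockdown (4.85 to 13.1) and 65.8% after double knockdown (58.9 to 72.1), against 5.59% in control (3.06 to 9.98). The left junction gave 25%, 10.6% and 72.8%, against 7.65% in control. This was the widest difference of any member cassette exon from control, 60.2 points, and the double knockdown was 47.1 points above the Ptbp1 knockdown. The exon of 213 nt (mm9, chr9:59723009-59723221, plus strand) had 43.6%, 45.3% and 23.0%, against 62.4% in control. Both single knockdowns lay between control and the double knockdown there, at -18.8 and -17.1 points, beside -39.4 points in the double knockdown. The deposited SpliceTrap inclusion ratio, the authors' own estimate of inclusion, put both single knockdowns past the limit, at -21.2 and -21.3 points.

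Myo18a held 3 counted exons. The exon of 45 nt (mm9, chr11:77668180-77668224, plus strand) had 28.2%, 27.9% and 18.5% inclusion in the Ptbp1, Ptbp2 and double knockdowns, against 46.1% in control. Left-junction inclusion was 38.2%, 41.1% and 25.7%, against 59.4% in control. A pair of exons that share their left end, of 36 nt and 144 nt (mm9, chr11:77629358-77629393 and chr11:77629358-77629501), rested on 21 to 56.5 reads per library. The exon of 36 nt had 33.3%, 14.8% and 46.7% inclusion in the Ptbp1, Ptbp2 and double knockdowns, against 8.93% in control, and that of 144 nt had 32.3%, 8.0% and 42.9%, against 9.73% in control. The SpliceTrap inclusion ratio of the exon of 144 nt was only 14.8%, 5.9% and 19.0%, against 7.1% in control, which ends its calls in the Ptbp1 and double knockdowns (7.7 and 11.9 points). For the exon of 36 nt the left junction gave 45%, 25.8% and 60%, against 15% in control. Both exons are joined at that same left junction, so this value does not cleanly tell them apart. Since they share an end, these are not separate results.

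Between the double and the single knockdowns, 3 member exons were higher and 4 lower than in the Ptbp1 knockdown (0.243% and 0.324%, beside 0.133% and 0.129% of all exons). Against the Ptbp2 knockdown 9 were higher and 4 lower (0.754% and 0.335%, beside 0.41% and 0.173%). The lower ones included the 42 nt exon of Kif1b, at -54.9 points from the Ptbp1 knockdown and -39.3 points from the Ptbp2 knockdown. The value of -39.3 points rests on the mean of unequal junctions described above and did not hold otherwise. Seen from the long acceptor, inclusion was 20.1% after double knockdown and 25.0% of only 16 reads after Ptbp2 knockdown. Of the reads that left the exon before it, 12.7% and 9.63% went to the 42 nt exon in these libraries.

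Alternative splice sites, where an exon has a longer and a shorter form, could be compared at 30, 31 and 30 sites of the members in the Ptbp1, Ptbp2 and double knockdowns. Those higher by 20 points or more were 2, 1 and 2, beside 1.0%, 0.634% and 1.11% of all such sites, and none was lower, beside 0.373%, 0.399% and 0.741%. In all 3 knockdowns this held for Myo9b, named after its values were seen, whose longer acceptor adds 106 nt (mm9, chr8:73883457-73883562), a length that does not keep the frame. Its share was 45.8%, 40.7% and 49.1% in the Ptbp1, Ptbp2 and double knockdowns, against 19.5% in control, on 41 to 59 reads per library. The other was the Kif1b extension. None of the 4 retained introns of the members differed by 20 points in the inclusion ratio.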

How the data were processed

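The tools named in the submitters' processing notes are CASAVA, TopHat and Cufflinks, and the build is mm9; versions are not given in the sources used here. The authors deposited Cufflinks FPKM for each library, with a score and a coverage signal that served only beside them, and SpliceTrap tables. Per the file headers, these give junction read counts, a coverage signal per exon (reads × 100 / size) and an inclusion ratio, a fraction of transcripts. The deposited FPKM were not on the usual scale, so each library was rescaled by its sum of FPKM times length.

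Most loci carry assembly identifiers, so symbols came from RefSeq accessions in the assemblies (99.7% of 27207 matched), 305 of them by exon and intron lengths in GENCODE vM21; 96.1% of 228333 exon trios were named by shared mm9 splice sites. Exon reads were summed over exons, scaled by median of ratios and set on log2(CPM + 0.1). They appear to count both strands. The procedure was tested on simulated data.

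The members and lists were chosen with earlier results of these data known. Named are members at least 1.5-fold from control, the 2 highest per kb in each family, members with an exon at least 20 points from control, Myo5a and Dctn4, and up to 4 adaptors per comparison; 1 of the members so named is not reported here. Alternatives were total scaling, other pseudocounts and limits, FPKM, the inclusion ratio and, chosen after seeing the data, the left junction alone and leaving out exons on opposite strands. Sequences came from GENCODE transcripts with matching structure; intron sequence was not used here. Python 3.11.15, numpy 2.4.6, pandas 2.3.3 and matplotlib 3.10.9 were used.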

Additional observations from a re-analysis of the deposited data

How the results depend on the processing

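With 1 library in each group, no replicate could be left out. No paired analysis was possible because each group holds 1 library. Counts of members that moved by over 1.5 times are given here. At 2-fold, 3 members were higher and 0 lower in the Ptbp1 knockdown, 1 lower in the Ptbp2 knockdown, and 1 higher and 1 lower in the double knockdown. Scaling by total exon reads left 1 lower member in the Ptbp1 knockdown and gave 5 higher and 2 lower in the double knockdown. Rescaled FPKM gave 0 lower in the Ptbp1 knockdown, 4 higher in the Ptbp2 knockdown, and 5 higher and 2 lower in the double knockdown; it reversed Dynlt1b in the Ptbp2 knockdown (2.13). For exons, a limit of 10 points gave 11 higher and 6 lower in the Ptbp1 knockdown, 3 and 8 in the Ptbp2 knockdown, and 16 and 11 in the double knockdown. The SpliceTrap inclusion ratio gave 6 lower in the Ptbp1 knockdown, 3 higher and 7 lower in the Ptbp2 knockdown, and 11 lower in the double knockdown. At least 50 junction reads left 1 lower in the Ptbp1 knockdown, and the left junction alone gave 4 lower in the Ptbp1 and 2 in the Ptbp2 knockdown. Apart from the limits, which admit more or fewer members by construction, the cause was not tested. Leaving out exons that overlap the opposite strand changed no call among the 48 values of single genes. Of those genes only Kifc2 has reads on such exons (6.60%), so the values of the others could not change. Members with larger shares, such as Klc3 (71.5%) and Kif3c (48.0%), are not among the 48 values. The other alternatives changed no count by over 1.5 times. Junction reads limit the exons of Dync2h1, Kifc5b, Myo9b and the Myo18a pair.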
